A study of Mus musculus with 8 samples.

Results

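The genes described here are the mouse nuclear genes for mitochondrial ribosomal proteins, taken as every gene whose symbol starts with Mrpl or Mrps followed by a digit. The exon table held 74 of them among 20512 named genes, and the intron table held 76 among 18655. Mrps6 and Mrps34 were present in the intron table only. The RNA was from embryonic stem cells (ESC) of the mouse line F1-21.6, a 129Sv-Cast/EiJ hybrid, grown on mitomycin C-inactivated mouse embryonic fibroblasts with serum and leukaemia inhibitory factor, and from neural progenitor cells (NPC) differentiated from that line. The NPC material was 1 clone, so a difference between the cell types may also be a difference of that clone. Each cell type had 2 biological replicates with 2 technical libraries each, 8 libraries in all, made from total RNA after Ribo-Zero depletion of ribosomal RNA. The labels do not say whether the biological replicates were separate cultures or differentiations, so the p-values below measure only the spread between these samples.

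The mitochondrial ribosome translates the few mRNAs encoded by the mitochondrial genome, all of which specify core subunits of the respiratory chain and ATP synthase. Its ribosomal RNAs come from mitochondrial DNA, whereas all of its proteins are encoded in the nucleus, made in the cytosol and imported. Proteins named MRPL mostly belong to the large subunit, which holds the peptidyl transferase centre, and proteins named MRPS mostly to the small subunit, which decodes the mRNA. Some descend from bacterial ribosomal proteins, and others were added in the mitochondrial lineage. MRPS36 is now assigned to the oxoglutarate dehydrogenase complex and is kept here because its symbol meets the rule.

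The labels were checked against marker genes in the authors' deposited table. All 6 ESC markers (Pou5f1, Nanog, Zfp42, Esrrb, Dppa5a, Tdgf1) were lower in NPC, with a summed level of 5484 RPKM (reads scaled to gene length and to library depth) in ESC and 12.6 in NPC in the authors' deposited table. All 5 NPC markers measured (Fabp7, Olig2, Nes, Pax6, Vim) were higher, at 449 and 14164 RPKM summed in the authors' deposited table, and Sox1 was not analysed here. Of 7 fibroblast markers, 4 were lower in NPC and none higher, with sums of 29.1 and 9.64 RPKM in the authors' deposited table and no gene at 0. Of 4 astrocyte markers, 3 were higher in NPC, with sums of 4.80 and 481 RPKM in the authors' deposited table, and of 3 neuron markers tested 1 was higher and 2 were lower. None of these markers is a mitochondrial ribosomal protein gene, and the part of these other cell types in the values below was not tested.

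In exons, mitochondrial ribosomal protein mRNAs were more often lower than higher in NPC. Of 73 genes tested, 37 (50.7%) were lower and 3 were higher at an adjusted p under 0.05 in the authors' deposited table. Over all 12509 genes tested, 33.9% were lower and 32.3% were higher by the same rule. The median log2 fold change of the mitochondrial ribosomal protein genes was -0.63 in the authors' deposited table, beside -0.07 over all genes. Of the 37 lower genes, 24 were lower by at least 2-fold, which is 24 of 73 tested, beside 27.0% of all genes. Large changes were few: 2 of 73 (2.74%) changed by at least 4-fold in either direction, beside 30.5% of all genes. Because these genes are well expressed, the count was also read against genes whose mean level reached 10 RPKM. At that level 37 of 72 were lower and 3 higher, and over all 8057 such genes 36.5% were lower and 31.5% higher. The summed level of the 73 genes was 5155 RPKM in ESC and 3450 in NPC in the authors' deposited table, a ratio of 0.669. In RNA from bulk cultures, fewer cells that express a gene and less of its RNA per cell cannot be told apart. The exon levels are pooled over each cell type's libraries, with no replicate values, so their error cannot be given. The sources used here do not say whether the technical libraries entered the authors' comparison as separate samples.

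**Figure D1:**
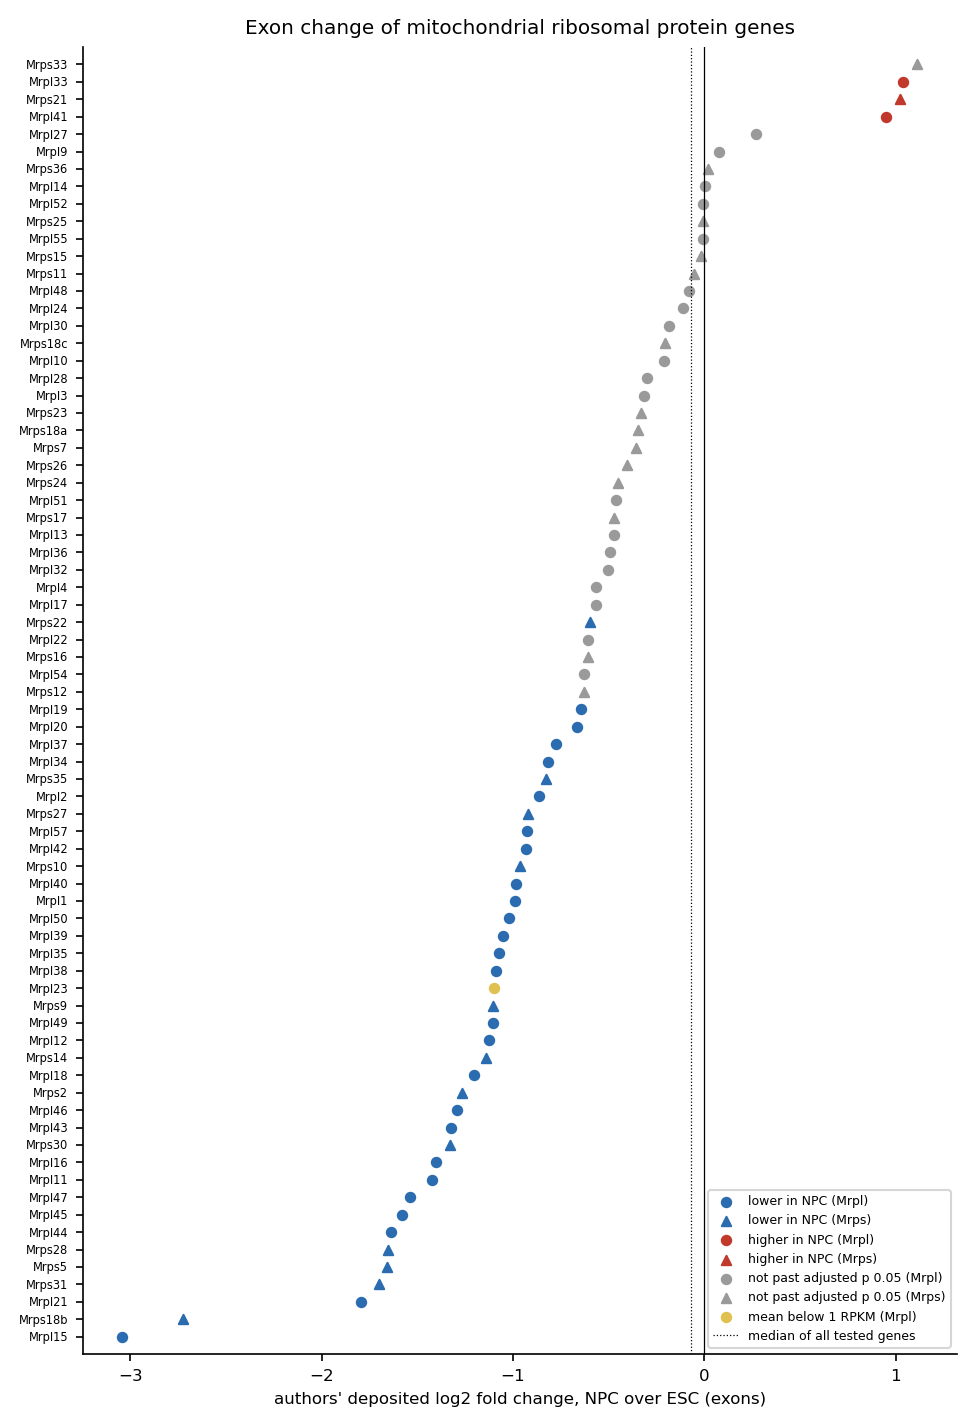
Deposited exon log2 fold change (NPC over ESC, horizontal axis) for 74 mitochondrial ribosomal protein genes, 1 row per gene, with circles for Mrpl and triangles for Mrps genes and colour for the call at an adjusted p of 0.05; the dotted line is the median of all tested genes, -0.07. The 37 genes called lower fill the left side down to Mrpl15 at -3.04, and 3 called genes lie on the right.

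A pair of genes stood apart at the lower end. Mrpl15, a large-subunit protein of bacterial descent, had 107 RPKM in ESC and 14.2 in NPC in the authors' deposited table. Its log2 fold change there was -3.04, or 8.23-fold lower in NPC (the authors' deposited table, adjusted p = 1.61e-32). Mrps18b, 1 of 3 mammalian relatives of bacterial ribosomal protein S18, had 27.9 and 4.42 RPKM in the authors' deposited table. It was 6.62-fold lower, a log2 fold change of -2.73 (the authors' deposited table, adjusted p = 7.68e-09). Its NPC level was the lowest of the 73 tested genes. Its relatives did not pass the threshold: Mrps18a, whose protein sits in the large subunit despite its name, had a log2 fold change of -0.35 and an adjusted p of 0.339, and Mrps18c had -0.21 and 0.677 in the authors' deposited table. Their exon levels in ESC were 67.8 RPKM for Mrps18a and 40.5 for Mrps18c in the authors' deposited table, so Mrps18b was the lowest of the 3 in both cell types.

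The next 6 genes were lower by about 3-fold each. Mrpl21, a large-subunit protein of bacterial descent, went from 88.4 to 28.6 RPKM, a log2 fold change of -1.79 in the authors' deposited table. Mrps31, a small-subunit protein without a bacterial counterpart, went from 84.8 to 28.9 RPKM (-1.70, the authors' deposited table). Mrps5, the homologue of bacterial S5, went from 65.4 to 22.3 RPKM (-1.66, the authors' deposited table). The other three were Mrps28 at -1.65, Mrpl44 at -1.64 and Mrpl45 at -1.58 in the authors' deposited table, with adjusted p-values between 4.06e-10 and 6.85e-08. MRPL44 and MRPL45 are mitochondria-specific proteins of the large subunit. At the other end of the genes called lower, Mrpl34 (-0.82), Mrpl37 (-0.77), Mrpl20 (-0.66), Mrpl19 (-0.64) and Mrps22 (-0.60) had adjusted p-values between 0.0117 and 0.0463 in the authors' deposited table. These 5 genes were lower by 1.51-fold to 1.76-fold in the authors' deposited table.

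Only 3 tested genes were called higher in exons, each by about 2-fold. Mrpl33, a small large-subunit protein of bacterial descent, had 15.4 RPKM in ESC and 36.4 in NPC, a log2 fold change of 1.04 (the authors' deposited table, adjusted p = 0.000357). Mrps21, the homologue of bacterial S21 and a small-subunit protein, had 102.5 and 229 RPKM, a log2 fold change of 1.02 (the authors' deposited table, adjusted p = 0.000628). Mrpl41, a mitochondria-specific large-subunit protein, had 15.4 and 32.7 RPKM, a log2 fold change of 0.95 (the authors' deposited table, adjusted p = 0.00380). Mrps21 had the highest mean level of all the genes, and the next highest in NPC was Mrpl24, at 125 RPKM in the authors' deposited table. Mrps33 had the largest positive value, 1.11, from 4.73 to 11.7 RPKM, but an adjusted p of 0.0655 in the authors' deposited table. In mm9, the intron span of Mrpl33 on chromosome 5 overlaps that of the opposite-strand gene Rbks by 38233 bp. The sources used here do not say whether counting used strand, so the values of Mrpl33 are uncertain, most directly its intron values below. Rbks itself had 0.992 and 1.31 RPKM in ESC and NPC in the authors' deposited table.

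Between these ends, 33 tested genes did not pass the threshold. Of all tested genes of the set, 9 had a log2 fold change within 0.1 of 0 in the authors' deposited table, among them Mrpl9 (0.07), Mrpl14 (0.00), Mrpl52 (0.00), Mrpl55 (-0.01), Mrps25 (0.00), Mrps15 (-0.02) and Mrps11 (-0.05). Mrps36 was also in that range at 0.02, with 10.2 and 10.6 RPKM in the authors' deposited table. Mrpl27, a large-subunit protein of bacterial descent with one of the lowest levels, had 10.1 and 13.2 RPKM and a log2 fold change of 0.27 (the authors' deposited table, adjusted p = 0.699). Mrpl4, also of bacterial descent, had 13.3 and 9.57 RPKM (-0.57, the authors' deposited table, adjusted p = 0.182). Mrpl23 was not tested because its mean fell below 1 RPKM, with 0.673 in ESC and 0.264 in NPC in the authors' deposited table.

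Levels per length differed widely among genes whose products enter one particle. Over the 73 tested genes the highest exon level was 44.4 times the lowest in ESC and 51.8 times in NPC, from the authors' deposited table. The highest in ESC was Mrpl18 at 210.0 RPKM, followed by Mrpl39 at 208 RPKM, and in NPC these stood at 99.7 and 109.5 RPKM in the authors' deposited table. MRPL18 is a large-subunit protein of bacterial descent, and MRPL39 is mitochondria-specific. Other abundant transcripts, Mrpl20 (156 and 113 RPKM) and Mrpl40 (171 and 94.1 RPKM), were lower as well in the authors' deposited table. The order of levels was largely kept, with a correlation of log2 levels between the cell types of r = 0.80 (Spearman 0.82) over 73 genes that share the same libraries. Genes with a higher ESC level tended to have a lower fold change, r = -0.42 over the same 73 genes, where the ESC level enters both quantities.

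**Figure D2:**
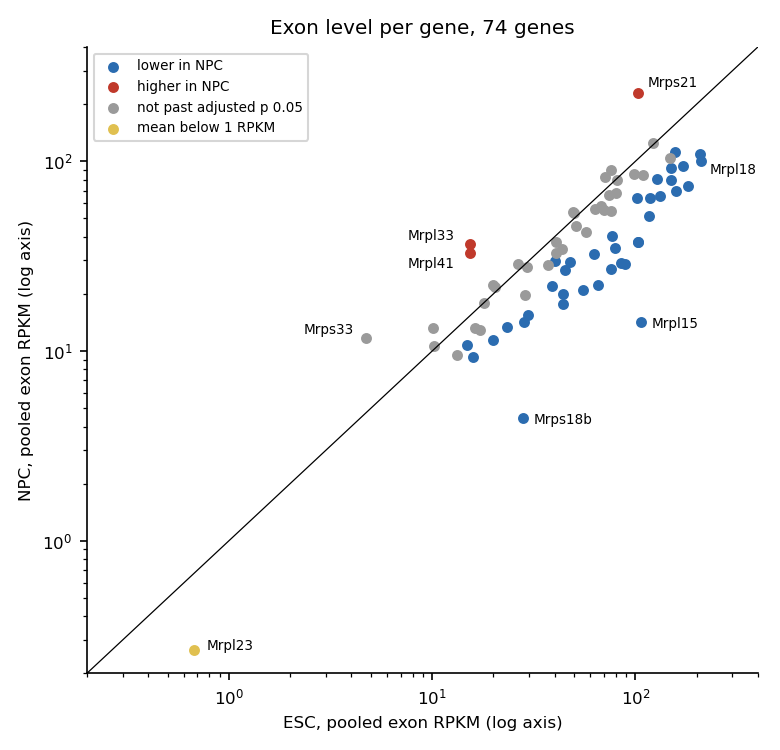
Pooled exon RPKM per gene in ESC (horizontal) and NPC (vertical), both on log axes, 1 point per gene for 74 genes, coloured by the authors' call; the diagonal marks equal levels. Most points lie below the diagonal, Mrpl15 and Mrps18b farthest from the others, and Mrps21, Mrpl33 and Mrpl41 lie above it.

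Both subunits showed the same direction. Over all tested genes, 33.9% were lower and 32.3% higher, with a median log2 fold change of -0.07 in the authors' deposited table. Of 48 large-subunit genes tested, 26 (54.2%) were lower and 2 higher, with a median log2 fold change of -0.72 in the authors' deposited table. Of 24 small-subunit genes, 11 (45.8%) were lower and 1 was higher, with a median of -0.60 in the authors' deposited table. Genes listed as mitochondria-specific had 18 (64.3%) lower and 1 higher of 28 tested (median -0.92) in the authors' deposited table. Genes listed as bacterial homologues had 19 (43.2%) lower and 2 higher of 44 (median -0.59) in the authors' deposited table. Mrps18a and Mrps18b, relatives of bacterial S18, were listed as mitochondria-specific, and Mrpl55 as a bacterial homologue. The split therefore depends on these assignments. The difference between these subgroups was not tested. For the subunit split, Mrps30 and Mrps18a were counted with the large subunit, where their proteins are found.

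Some chromosomes were lower as a whole, which touches these counts. The median log2 fold change of all tested genes was -0.27 on chromosome 1, -0.52 on chromosome 8 and -0.41 on chromosome 19, from the authors' deposited table. Of the 12 tested mitochondrial ribosomal protein genes on these 3 chromosomes, 11 were lower, beside 40.7% of all 1806 genes tested there. All 5 on chromosome 19 were lower, with a median of -1.40 in the authors' deposited table. Without chromosomes 1, 8, 12 and 19, a choice made after seeing the data, 26 of 61 genes were lower and 3 higher, beside 33.1% lower over all genes there. The median was then -0.57, beside -0.03 over all genes in the authors' deposited table.

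Promoter sequences are shown for 5 genes: the divergent pair Mrpl46 and Mrps11, whose starts lie side by side and whose exon values differ, Mrps18b, with one of the 2 largest decreases, and Mrps21 and Mrpl33, which rose. Each window runs from 250 bases before to 50 after the annotated start, on the gene's own strand, 5′ to 3′, from RefSeq on GRCm38.p6. Capitals mark matches, on either strand, to the NRF1 consensus, to CCGGAAG (the core site of GABPA and other ETS factors) or to the YY1 consensus around ATGGCGG. Mrpl46 is at chr7:78783040-78783339 on the minus strand, Mrps11 at chr7:78782881-78783180 on the plus strand, Mrps18b at chr17:35916391-35916690 on the minus strand, Mrps21 at chr3:95871465-95871764 on the minus strand and Mrpl33 at chr5:31613701-31614000 on the plus strand.
Mrpl46: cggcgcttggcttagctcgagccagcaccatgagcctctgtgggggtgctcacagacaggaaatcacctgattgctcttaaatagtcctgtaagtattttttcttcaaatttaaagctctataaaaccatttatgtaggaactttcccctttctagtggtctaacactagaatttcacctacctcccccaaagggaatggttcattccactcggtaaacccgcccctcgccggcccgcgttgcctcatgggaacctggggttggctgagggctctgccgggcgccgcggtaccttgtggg
Mrps11: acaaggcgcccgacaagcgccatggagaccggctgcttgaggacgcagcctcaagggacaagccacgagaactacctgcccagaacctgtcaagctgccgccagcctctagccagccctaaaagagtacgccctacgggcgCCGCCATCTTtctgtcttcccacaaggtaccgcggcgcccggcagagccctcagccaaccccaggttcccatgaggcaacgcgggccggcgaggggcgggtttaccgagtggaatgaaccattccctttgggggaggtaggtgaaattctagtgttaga
Mrps18b: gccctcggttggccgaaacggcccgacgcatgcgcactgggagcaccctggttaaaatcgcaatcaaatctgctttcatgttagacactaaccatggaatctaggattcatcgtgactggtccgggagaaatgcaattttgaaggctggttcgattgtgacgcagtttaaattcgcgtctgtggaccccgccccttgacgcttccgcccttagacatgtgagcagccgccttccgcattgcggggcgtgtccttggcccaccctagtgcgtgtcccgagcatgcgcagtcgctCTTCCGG
Mrps21: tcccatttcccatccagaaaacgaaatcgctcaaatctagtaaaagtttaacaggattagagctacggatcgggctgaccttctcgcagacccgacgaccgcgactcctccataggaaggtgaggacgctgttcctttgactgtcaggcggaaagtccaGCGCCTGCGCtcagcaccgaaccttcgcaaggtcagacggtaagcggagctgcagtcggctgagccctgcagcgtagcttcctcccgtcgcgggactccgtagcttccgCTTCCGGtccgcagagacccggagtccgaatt
Mrpl33: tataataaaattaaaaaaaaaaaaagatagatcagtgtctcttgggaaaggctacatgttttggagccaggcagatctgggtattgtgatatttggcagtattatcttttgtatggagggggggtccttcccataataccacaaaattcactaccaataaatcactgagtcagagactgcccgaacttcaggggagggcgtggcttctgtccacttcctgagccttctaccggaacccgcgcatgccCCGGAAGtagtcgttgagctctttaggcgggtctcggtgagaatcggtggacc
The Mrps21 window held an NRF1 and an ETS match, the Mrps18b and Mrpl33 windows an ETS match each, the Mrps11 window a YY1 match, and the Mrpl46 window none of the 3. The Mrps11 and Mrpl46 windows overlap, and the YY1 match lies just past the end of the Mrpl46 window at 78783040. This contrast within the pair therefore comes from the window edge. NRF1, GABPA and YY1 are factors known to bind promoters of nuclear genes for mitochondrial proteins.

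Matches to these motifs were counted over the promoters of 67 of the 76 genes that the RefSeq table held. The NRF1 consensus was found in 13 promoters (19.4%), beside 11.7% of the promoters of 9455 tested genes and 5.19% of all 27025. The ETS letters were found in 24 (35.8%), beside 19.7% and 9.93%. The YY1 consensus was found in 7 (10.4%), beside 3.80% and 1.59%. At least 1 of these 3 was present in 37 of the 67 (55.2%), beside 31.3% of tested genes. Letters for 2 other factors were less frequent than among tested genes: CACGTG, the E-box bound by Myc and others, was in 5 (7.46%, beside 12.1% of tested and 8.09% of all genes), and GGGCGG, the Sp1 site, in 34 (50.7%, beside 70.0% of tested and 38.2% of all genes). The median GC content of the windows was 58.3%, beside 61% in tested genes. Genes with an ETS match had a median exon log2 fold change of -0.51 (24 genes) and those without -0.93 (41 genes) in the authors' deposited table. For NRF1 the medians were -0.57 with and -0.62 without a match, and for YY1 -0.77 and -0.61, in the authors' deposited table. These differences were not tested. These shares describe letters in a window and not binding.

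Many of these genes start back to back with a neighbour. In the mm9 coordinates of the intron table, 24 of 76 (31.6%) had the start of an opposite-strand gene within 1000 bp upstream, beside 1465 of 18655 genes (7.85%). Those 18655 include genes with little or no expression, and the share among expressed genes was not computed. The 2 shares are therefore not matched in level. The distance between starts was 33 to 935 bp, with a median of 147.5. Of 18 such neighbours outside the set that were tested, 12 were lower, 3 were higher and 3 did not pass (33.9% lower and 32.3% higher over all genes), with a median of -1.01 in the authors' deposited table. Neighbours did not always move with their partner: in 5 pairs both were lower, in 7 the neighbour was lower and the mitochondrial ribosomal protein gene did not pass. Mrpl49 and Fau, which encodes a cytosolic ribosomal protein, start 137 bp apart, and both were lower at -1.11 and -2.26 in the authors' deposited table. Mrpl18 and Tcp1, a subunit of the cytosolic chaperonin, start 322 bp apart and were both lower at -1.20 and -1.30 in the authors' deposited table. Mrpl50 was lower at -1.02 while Zfp189, which starts 134 bp away, was higher at 1.83 in the authors' deposited table. Mrpl47 was lower at -1.54 while Ndufb5, a complex I subunit whose gene starts 308 bp away, had 0.07 and an adjusted p of 0.835 in the authors' deposited table. The pair within the set, Mrpl46 and Mrps11 on chromosome 7, starts 42 bp apart, at 85927975 and 85928017 in mm9. Mrpl46 was lower at -1.29, from 116 to 51.4 RPKM, and Mrps11 was at -0.05, from 49.7 to 53.5 RPKM, in the authors' deposited table.

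Introns give a second readout from the same libraries, with 1 value for each biological replicate. Reads in introns come mostly from unspliced pre-mRNA, so they follow nascent transcripts more closely than exon reads do. Of 74 genes tested with limma on log2(RPKM + 1), 32 (43.2%) were lower in NPC and 1 was higher at a Benjamini-Hochberg adjusted p under 0.05. Over all 8811 genes tested, 47.3% were called, with 34.0% lower and 13.2% higher. The median log2 fold change was -0.87, beside -0.43 over all genes. Both NPC replicates lay below both ESC replicates in 59 of 74 genes (79.7%, beside 55.5% of all genes). They lay above both in 1 of 74 (beside 21.9% of all genes), and the groups overlapped in 14. Summed over the 74 tested genes, the intron level was 608 and 602 RPKM in ESC replicates 1 and 2, and 178 and 349 RPKM in NPC replicates 1 and 2. The NPC replicates were thus farther from each other than the ESC replicates were.

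The gene with the largest intron decrease was Mrps18b, on chromosome 17 with its start at 36053314 in mm9. Its intron values were 18.2 and 20.5 RPKM in ESC and 1.47 and 1.95 in NPC, from 519, 658, 42 and 50 reads. The groups were far apart, with a log2 fold change of -2.91 ± 0.45 (SE, limma, adjusted p = 0.000350). Mrpl15, on chromosome 1 with its start at 4775807, followed with 17.2 and 17.8 RPKM in ESC and 1.78 and 2.15 in NPC. Its log2 fold change was -2.64 ± 0.44 (SE, limma, adjusted p = 0.000639). The same 2 genes thus had the largest decreases in exons and, with all replicates, in introns. Without NPC replicate 2, Mrpl43 was lowest in introns at -3.14, Mrps18b stood at -3.04 and Mrpl15, at -2.73, came after Mrpl57 and Mrpl17. Mrpl43, a mitochondria-specific large-subunit protein, had 12.8 and 17.1 RPKM in ESC and 0.799 and 4.46 in NPC, a log2 fold change of -2.34 (limma, adjusted p = 0.00468). Its introns are short, with 1 and 5 reads in the NPC replicates, and the gene overlaps Peo1 on the other strand by 502 bp. Mrpl17, of bacterial descent, had 19.2 and 20.8 RPKM in ESC and 1.79 and 6.67 in NPC (log2 fold change -2.18, limma, adjusted p = 0.0129). Mrpl17 rests on 3 and 10 reads in NPC, and Mrpl57, the next short gene, on 2 and 9.

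A further 3 genes with lower intron levels in NPC had close replicates in both cell types. Mrpl49, a mitochondria-specific large-subunit protein, had 13.1 and 12.4 RPKM in ESC and 2.16 and 2.17 in NPC, a log2 fold change of -2.12 (limma, adjusted p = 0.00142). Mrps24, a small-subunit protein of bacterial descent, had 11.3 and 10.5 RPKM in ESC and 2.04 and 2.49 in NPC (-1.87, limma, adjusted p = 0.00233). Mrps5 had 5.12 and 4.80 RPKM in ESC and 1.25 and 1.47 in NPC (-1.34, limma, adjusted p = 0.000955). In each of these 3 genes the NPC replicates differed by less than their distance to ESC. Mrpl11, a protein of the GTPase-associated region, fell by 2.09 on the log2 scale, Mrpl18 by 1.95 and Mrps14 by 1.93, with limma adjusted p-values of 0.0218, 0.00238 and 0.0263. Mrpl57 fell by 2.09 (limma, adjusted p = 0.0287), with ESC replicates at 27.0 and 18.2 RPKM and NPC replicates at 1.86 and 9.33.

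Mrps36 was the 1 gene called higher in introns. It had 0.628 and 0.634 RPKM in ESC and 1.62 and 2.29 in NPC, a log2 fold change of 0.85 (limma, adjusted p = 0.00337), and it is the gene whose product is no longer counted as ribosomal. With the receptor-gene level described below subtracted, Mrps36 was at 0.60 with an adjusted p of 0.207 (limma). None of the 3 genes called higher in exons passed in introns. Mrps21 had intron values of 2.06 and 2.03 RPKM in ESC and 1.48 and 2.00 in NPC (-0.16, limma, adjusted p = 0.521). Mrpl33 had 2.97 and 2.33 in ESC and 1.87 and 3.09 in NPC (-0.09, limma, adjusted p = 0.795), with overlapping groups. Its intron span overlaps Rbks, so reads of that gene could not be separated from these values. Mrpl41 had 2.52 and 3.73 in ESC and 3.35 and 9.36 in NPC (0.72, limma, adjusted p = 0.187), from 3, 5, 4 and 10 reads. The genes seen in introns alone did not pass either: Mrps34, a small-subunit protein, had 4.06 and 5.41 RPKM in ESC and 1.35 and 10.5 in NPC (-0.13, limma, adjusted p = 0.867), and Mrps6 had 1.36 and 1.56 in ESC and 1.51 and 2.41 in NPC (0.25, limma, adjusted p = 0.335). Mrps6 shares its span with Slc5a3 and Mrps34 overlaps Mapk8ip3, so reads of the neighbours could not be separated. Mrpl14 and Mrpl23 were below a mean of 1 RPKM in introns and were not tested.

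**Figure D3:**
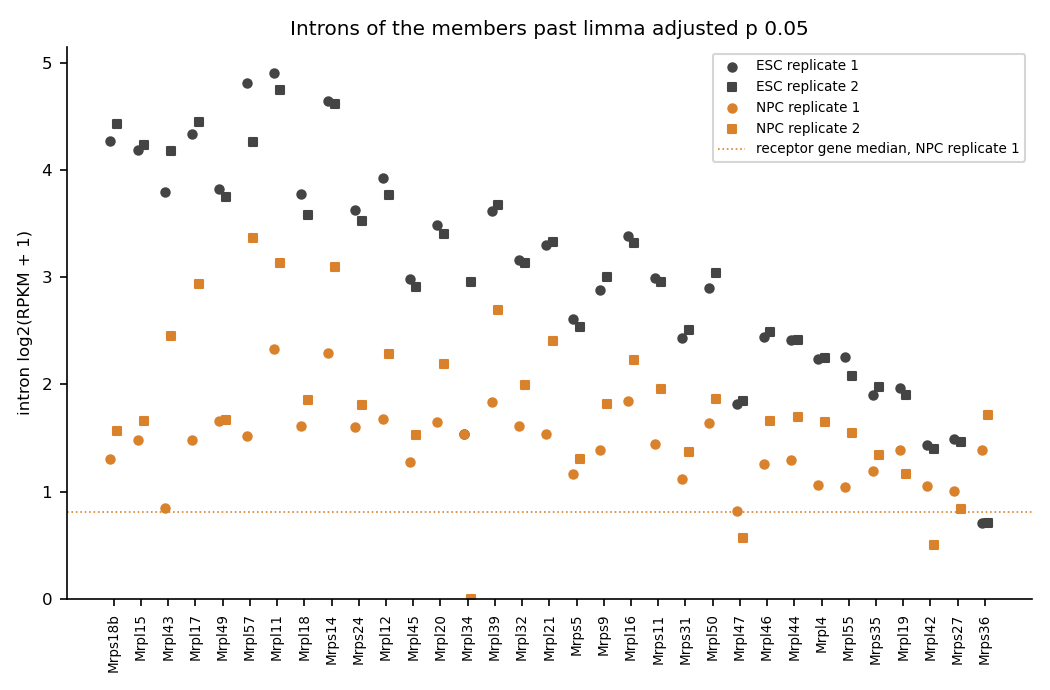
Intron level on the log2(RPKM + 1) scale (vertical axis) of the 33 genes past a limma adjusted p of 0.05, ordered by fold change, with dark points for ESC, orange points for NPC, circles for replicate 1 and squares for replicate 2; the dotted line is the median of receptor genes in NPC replicate 1. Dark points lie above orange ones except at Mrps36 on the right and at Mrpl34, where ESC replicate 1 and NPC replicate 1 coincide near 1.9 RPKM.

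The intron values are shallow, and the NPC replicates differed. The 76 genes had a median of 179.5 and 193 reads in the ESC replicates and 60.5 and 86.5 in the NPC replicates, recovered as whole reads from the deposited values. Mrpl34, called lower with at most 2 and 8 reads in ESC and 2 and 0 in NPC, rests on too few reads to describe further. NPC replicate 2 was above replicate 1 in 66 of the 76 genes, by a median of 0.46 on the log2 scale, beside 0.42 over all tested genes. In 239 olfactory, vomeronasal and taste receptor genes, which neither cell type is known to use, the median intron level was 0.747 RPKM in NPC replicate 1 and 0.0828 in NPC replicate 2, and 0.0291 and 0 in the ESC replicates. In NPC replicate 1, 12 genes of the set were at or below the receptor genes' 90th percentile of 1.23 RPKM, and in NPC replicate 2 there was 1. With the receptor-gene median subtracted from each column, 25 of 74 genes were lower and none higher (limma, beside 25.2% and 5.77% of all genes). Scaling columns to a common median shifted the median of all genes from -0.43 to -0.02. Of the 74 genes of the set, 26 were then lower and 3 were higher (limma, beside 25.3% and 26.2% of all genes). The 3 were Mrps36, Mrpl41 and Mrps6, the last 2 at 1.17 and 0.61.

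The count also depended on single replicates. Without ESC replicate 1 or ESC replicate 2, 5 and 4 genes were lower (limma, beside 5.72% and 12.8% of all genes) and none higher (13.3% and 6.32%), because the spread then rests on the NPC pair and the lone ESC sample is assumed to vary alike. Without NPC replicate 1, 46 were lower and 4 higher (limma, beside 51.4% and 18.3%), and without NPC replicate 2, 63 were lower and none higher (limma, beside 63.0% and 9.95%). Mrps18b, Mrpl15 and Mrps5 passed in the main comparison and in each of its 13 alternatives, with largest adjusted p-values of 0.0187, 0.0471 and 0.0288 (limma). Of 67 genes with a value in every fit, 51 were lower in NPC in each.

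Exon and intron changes were compared over the 72 genes tested in both. The log2 fold changes correlated at r = 0.66 (Spearman 0.60), beside 0.80 (0.83) over all 8380 genes tested in both. These points share the same libraries, and genes are not independent replicates. In 65 genes both values were negative, in 2 both were positive, and in 5 the exon value was positive and the intron value negative. There were 26 genes (36.1%) lower in both, 11 (15.3%) lower in exons alone and 6 (8.33%) lower in introns alone. Over all genes tested in both, these shares were 26.1%, 11.1% and 7.83%. The 6 were Mrpl4, Mrpl17, Mrpl32, Mrpl55, Mrps11 and Mrps24. Mrps11 had intron values of 6.93 and 6.76 RPKM in ESC and 1.72 and 2.89 in NPC, a log2 fold change of -1.27 (limma, adjusted p = 0.00937), against its exon value of -0.05 in the authors' deposited table. Its divergent partner Mrpl46 had 4.44 and 4.62 in ESC and 1.39 and 2.15 in NPC (-1.01, limma, adjusted p = 0.00792). The 2 genes of this pair, printed above, were thus both lower in introns, while Mrpl46 alone was called in exons. Mrps28, a small-subunit protein, showed the other pattern, with -1.65 in exons in the authors' deposited table. Its introns were at 1.18 and 1.23 RPKM in ESC and 0.939 and 0.779 in NPC (-0.25, limma, adjusted p = 0.257). In NPC replicate 1 its intron value lies near that replicate's receptor-gene median of 0.747 RPKM. The 1 RPKM added before the logarithm draws intron log2 fold changes toward 0 at low levels, so the exon and intron scales are not alike. The difference between exon and intron change was not tested.

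**Figure D4:**
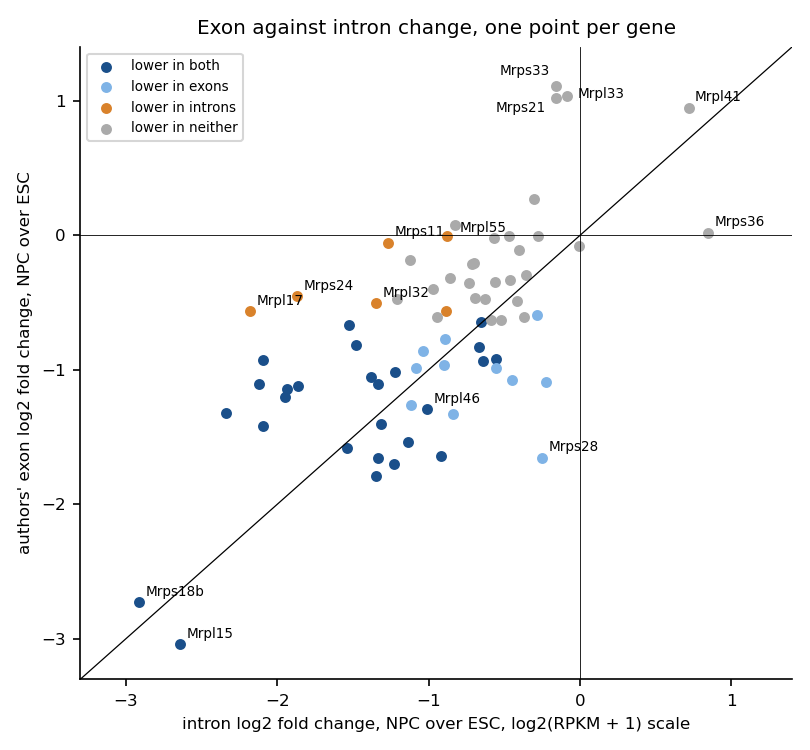
Deposited exon log2 fold change (vertical axis) against the intron log2 fold change on the log2(RPKM + 1) scale (horizontal axis), NPC over ESC. There is 1 point per gene for 72 genes, coloured by the readouts in which the gene was called lower. The diagonal marks equal plotted values. The added 1 RPKM draws intron values toward 0 at low levels, so distance from the diagonal is not a difference in change. Mrps18b and Mrpl15 lie at the lower left, and Mrps21, Mrpl33 and Mrps33 lie above 1 in exons with intron values near 0.

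Genes that work with the mitochondrial ribosome were read from lists chosen with earlier results of these data known. The shares called are to be read against the 33.9% lower and 32.3% higher over all genes, and those of the first 3 lists lay close to the former, at 33.3%, 34.6% and 35.7% lower. Of 6 mitochondrial ribosomal proteins with other names, 2 were lower: Gadd45gip1 (-1.66) and Ptcd3 (-1.21) in the authors' deposited table. Dap3, Chchd1, Aurkaip1 and Ict1 did not pass. Of 26 assembly factors, which process, modify and fold the ribosomal RNAs and proteins, 9 were lower and none higher (median -0.58, the authors' deposited table), led by the RNA-binding protein gene Fastkd2 at -1.93, and Eral1, an rRNA chaperone gene, had the smallest of these decreases at -0.73. Of 14 translation factors and related genes, 5 were lower and none higher, although their median was 0.22 in the authors' deposited table. The lowest was Lrpprc at -1.70, which stabilises mitochondrial mRNAs, and the highest of the called ones was the release factor gene Mtrf1 at -0.92, in the authors' deposited table. The elongation factor gene Tufm did not pass. Of 17 mitochondrial aminoacyl-tRNA synthetases, 7 were lower, down to Mars2 at -2.67, and 1 was higher, Wars2 at 1.51, in the authors' deposited table. Of 14 genes for expression and maintenance of mitochondrial DNA, 7 were lower and none higher, among them Elac2 (-2.08), which trims tRNA ends, the DNA-packaging factor Tfam (-1.44), the RNA polymerase Polrmt (-0.85) and the helicase Peo1 (-0.69), in the authors' deposited table.

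Regulators of mitochondrial gene expression moved in both directions. Of 11 tested, 5 (45.5%) were lower and 2 (18.2%) were higher in the authors' deposited table, beside 33.9% and 32.3% over all genes. The coactivator gene Ppargc1a had 0.0932 RPKM in ESC and reached 23.8 in NPC, a log2 fold change of 7.80 in the authors' deposited table. Its relative Pprc1 went the other way, from 52.5 to 2.60 RPKM (-4.42, the authors' deposited table). Mycn fell from 105 to 1.98 RPKM (-5.77) and Mycl, at 5.12 and 25.8 RPKM, rose by 2.19 on the log2 scale in the authors' deposited table. Gabpa, which binds the ETS letters above, was lower at -0.93, with Gabpb1 at -0.63 and Gabpb2 at -1.46 in the authors' deposited table. Nrf1 (-0.09), Yy1 (-0.54), Myc (-0.34) and Esrra (0.63) did not pass in the authors' deposited table. Whether any of these regulators contributes to the changes of the mitochondrial ribosomal protein genes was not tested.

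Cytosolic ribosomal proteins and nuclear-encoded respiratory chain subunits were read as a second ribosome and a second mitochondrial machine. Of 60 cytosolic ribosomal protein genes, 50 were lower and 1 was higher (Rpl5 at 0.89), with a median of -1.62 and a summed level ratio of 0.463 in the authors' deposited table. Many of them have near-identical processed copies, so their counts are uncertain. The lowest, Rpl10l at -9.63 in the authors' deposited table, is itself such a retrogene. Of 77 respiratory chain subunit genes, 17 (22.1%) were lower and 4 (5.19%) higher, with a median of -0.17 and a summed level ratio of 1.07 in the authors' deposited table. Over all genes, 33.9% were lower and 32.3% higher, so both shares of the respiratory chain genes lay below those. The extremes among them were Cox4i2 (-5.22) and Ndufv3 (2.05) in the authors' deposited table. The summed exon level of mitochondrial ribosomal protein genes, with its ratio of 0.669, lay between these 2 lists. The differences between lists were not tested.

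**Figure D5:**
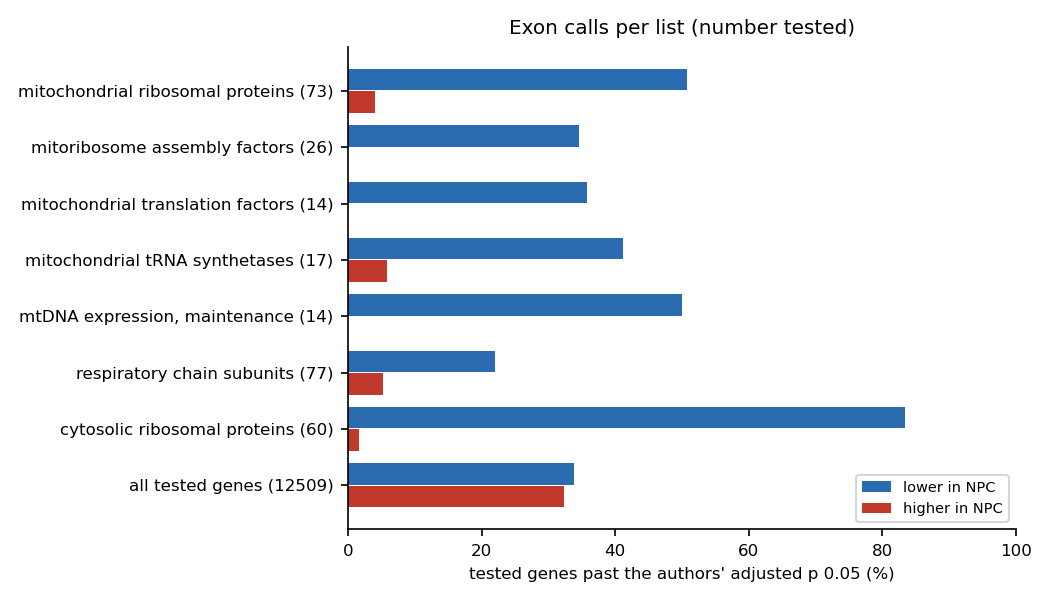
Share of tested genes (horizontal axis, percent) called lower (blue) or higher (red) in NPC by the authors' adjusted p, per list, with the number tested in parentheses. Mitochondrial ribosomal proteins stand at 50.7% lower and all tested genes at 33.9%, and cytosolic ribosomal proteins at 83.3%.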

How the data were processed

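RNA was measured in 8 libraries, 2 biological by 2 technical for each cell type. The authors deposited an exon table with, per the file headers, a log2 fold change, an adjusted p-value and RPKM pooled by cell type, and an intron table with 1 value per biological replicate. The intron values are taken as RPKM from the values. Depth was fitted to each column from the same values. For each gene, lengths up to its intron span were searched for one that gave whole reads in every column (within 0.001 read). Such a length was found for all 76 genes, and only 1 such length for 71 of them. Whole reads were the search criterion, so they are not an independent check of the unit. Where more than 1 length was possible, the largest was taken, so those read counts are upper values. The submitters' processing notes list DESeq2 1.10.0 and the build mm9. Aligner, counting tool, annotation and use of strand: not given in the sources used here.

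Exon calls are the authors' own, at an adjusted p-value under 0.05, among named genes whose mean level reached 1 RPKM, since no replicate values allow a test. Introns were tested with limma 3.58.1 in R 4.3.3 (trend on) on log2(RPKM + 1), for genes whose mean reached 1 RPKM, with Benjamini-Hochberg adjustment over all of them, 2 ESC against 2 NPC replicates. The procedure was also run on simulated reads without the background or the shift seen between the NPC replicates. That run does not show how it performs under those features. Alternatives were pseudocounts of 0.25 and 0.1, other filters, trend off, scaled columns, background subtraction, a replicate block and leaving out each replicate. Leaving out chromosomes 1, 8, 12 and 19, and limma-voom on the recovered reads, were added after seeing the data. Recovered intron reads totalled 5533455 to 6997646 per replicate, counted over all genes, and small counts limit the precision. In every column the total exceeded the fitted depth (5186790 to 6500767). Genes with several possible lengths were given the largest, and overlapping genes were counted separately, so the totals may be too high.

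The members and lists were chosen with earlier results of these data known. Genes were named by rule: the 8 highest and the 8 lowest exon log2 fold changes among called members, the 5 highest and 5 lowest levels, up to 10 members called in introns per direction, the Mrps18 relatives, members not tested in exons, and the extremes of each other list. Others (for example those in divergent pairs, those within 0.1 of 0 and those lower in introns alone) were chosen after their values were seen. Promoter windows came from a RefSeq table on GRCm38.p6, and no coordinates were moved between builds.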

Additional observations from a re-analysis of the deposited data

How the results depend on the processing

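In exons, the counts of 37 lower and 3 higher genes were the same without a filter, at a mean of at least 10 RPKM and after centring on the median of all genes, and 30 and 3 passed at an adjusted p of 0.01. The median log2 fold change was -0.47 (pseudocount 1) or -0.48 (pseudocount 0.1) from the pooled RPKM, because log2 ratios of pooled RPKM ran above the deposited values (median difference 0.14). In introns, the median was -1.01 and -1.04 with pseudocounts of 0.25 and 0.1, -1.05 with limma-voom on recovered reads (1 higher, 28 lower), -1.03 with background subtracted (0 higher) and -0.38 with scaled columns (3 higher); the cause was not tested. With 1 replicate left out, it ranged from -1.18 to -0.58, with 4 to 63 genes lower and 0 to 4 higher. Scaled columns changed the sign of 15 of 74 genes, of which the genes named by rule were Mrpl27 (0.13), Mrpl33 (0.32), Mrps21 (0.22), Mrps22 (0.18), Mrps28 (0.060), Mrps33 (0.17) and Mrps34 (0.29). None of these 7 was called in introns with all replicates and unscaled columns. Background subtraction reversed Mrps6 (-0.013). Leaving out 1 replicate changed the sign of 2 to 8 genes per fit. Among those named by rule, values ran from -0.34 to 0.17 for Mrpl33, -1.28 to 1.02 for Mrps34, -0.61 to 0.037 for Mrps22 and -0.52 to 0.20 for Mrps33. Same-numbered replicates did not deviate together across genes (r = 0.02). With 2 replicates per cell type, and a higher receptor-gene level in NPC replicate 1, this cannot decide whether the numbers pair them. With the replicate block 29 genes were lower and 1 higher, and the median stayed at -0.87. Of the named genes, Mrpl11, Mrpl39 and Mrps14 no longer passed under the block. Intron depth limits the short genes most, down to 0 to 2 reads in a replicate.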

Other observations

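Over the genes with both values, the median intron RPKM was 9.94% of the exon RPKM in ESC and 7.29% in NPC, where the exon value comes from the authors' deposited table. Single genes ran far higher, with 117% for Mrpl17, 113% for Mrpl57 and 69.4% for Mrps18b in ESC. By subunit the medians were 8.75% and 7.03% for large-subunit genes and 13.0% and 7.57% for small-subunit genes. Whether exon and intron values were scaled to the same depth is not known. Recovered intron reads exceeded the fitted intron depth in every column. These percentages may therefore not be true intron-to-exon ratios, and their difference between the cell types cannot be read as a change. In introns, the nuclear-encoded respiratory chain subunits had 29 of 77 genes lower and none higher, with a median log2 fold change of -0.90 (limma on log2(RPKM + 1)), and genes for mitochondrial DNA expression had 8 of 12 lower and none higher (median -1.39). The cytosolic ribosomal protein genes had 69 of 82 lower and none higher (median -2.68). Over all tested genes 34.0% were lower. The differences between these lists were not tested.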
